A study of Mus musculus with 21 samples.

Results

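Cdh5, Pecam1, Esam, Cldn5, Icam2, Vwf, Emcn and Plvap encode proteins of the endothelial junction and cell surface. These 8 genes were chosen by name, as known endothelial genes, and all 8 were found among the 24421 genes of the count table and placed at a single locus each. They were followed through RNA, GATA4 occupancy and open chromatin in E12.5 mouse hearts, with peaks taken from each gene body and the 50 kb on either side.

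Endothelial cells line vessels and the heart chambers and are held together by adherens junctions built on VE-cadherin and by tight junctions built on claudins. The surface also carries adhesion molecules of the immunoglobulin family, sialomucins, and proteins of vesicles and diaphragms through which plasma proteins pass. GATA4 is a zinc finger transcription factor best known in cardiomyocytes, and it is also required in the endocardium, the endothelium that lines the heart, for the cells that form the valve cushions.

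Endothelial RNA (EC) came from GFP+ cells sorted from Rosa26fsTrap;Tie2Cre ventricles, 60000 cells for each of 2 libraries. Cardiomyocyte RNA (CM) came as 3 libraries whose labels give cardiomyocytes as the source and no sort. GATA4 was mapped by bioChIP-seq, in which Cre switches on biotinylation of a tagged GATA4 in 1 lineage and streptavidin pulls down the bound chromatin, in 3 libraries with Tie2-Cre and 3 with Tnnt2-Cre, each from 15 to 20 pooled ventricles. Open chromatin was mapped by ATAC-seq in 2 libraries of 40000 Tie2-Cre-sorted cells. It was also mapped in Gata4 ko and Gata4 het cells, 3 libraries each of 20000 cells, after 1 mg tamoxifen at embryonic day 9.5 had induced Cdh5(Pac)-CreERT2 in both genotypes; those cells were sorted by a Rosa26mTmG reporter. The CM ATAC samples were not analysed here. Tie2-Cre is also active in blood lineage cells, Tnnt2-Cre is driven from a cardiomyocyte promoter, and Cdh5(Pac)-CreERT2 is a transgene that carries Cdh5 regulatory sequence on a large cloned DNA fragment. The labels give ko and het as genotypes without naming the alleles, and no RNA of these cells was measured.

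The EC libraries held 27660790 and 21682362 reads on genes, and the CM libraries 42948614 to 48393473. All 6 endothelial markers (Kdr, Tek, Tie1, Flt1, Eng, Erg) were higher in EC libraries, with summed levels of 3289 to 3292 CPM (counts scaled to the library size) in EC and 455 to 525 CPM in CM. All 5 cardiomyocyte markers were lower in EC libraries, with sums of 195 to 204 CPM in EC and 18878 to 20128 CPM in CM. The second library of each GATA4 group stood apart: it listed 2734 peaks with Tie2-Cre and 3603 with Tnnt2-Cre, while the other Tie2-Cre lists held 17682 and 25936 peaks and the other Tnnt2-Cre lists 22814 and 30447. Lists from ATAC-seq held 114599 and 130708 peaks in Tie2-Cre cells, 55733 to 87496 in ko cells and 67201 to 90326 in het cells. Nothing in the labels says that the libraries of a group came from separate litters, so p-values measure only the spread between these libraries.

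All 8 genes were higher in EC than in CM libraries, and for none of them did the CPM of EC and CM libraries overlap. The differences ran over a wide range, the largest for Cdh5 and the smallest for Cldn5. Of the 14851 genes tested with edgeR's quasi-likelihood test at a Benjamini-Hochberg adjusted p under 0.05, 37.5% were called higher in EC and 40.2% lower, and 40.8% had EC libraries all above CM libraries. The median log2 fold change (EC minus CM) of the 8 genes was 2.55, against -0.06 over all genes tested. The genes were picked as endothelial genes, so their shared direction is a description of the sort and adds no evidence about it.

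Cdh5 encodes VE-cadherin, the cadherin of endothelial adherens junctions. Its level was 1032 and 1003 CPM in EC libraries, against 64.7, 73.9 and 83.1 CPM in CM libraries. The log2 fold change was 3.78 ± 0.10 (SE; edgeR quasi-likelihood, adjusted p = 1.61e-10), which ranked 264 among all genes tested. Every CM library lay far below both EC libraries, and relative to EC its CM level was the lowest of the 8 genes.

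Pecam1 and Esam encode immunoglobulin family adhesion molecules of cell contacts. Pecam1 (PECAM-1, CD31) stood at 639 and 644 CPM in EC libraries, against 109, 107 and 90.5 CPM in CM libraries, a log2 fold change of 2.65 ± 0.09 (edgeR, adjusted p = 6.33e-10). Esam (endothelial cell-selective adhesion molecule, which sits at tight junctions) stood at 86.1 and 75.0 CPM in EC libraries, against 14.5, 14.1 and 15.7 CPM in CM libraries, a log2 fold change of 2.45 ± 0.09 (edgeR, adjusted p = 1.93e-09). The EC libraries of Pecam1 lay close together (SD 3.67 on a mean of 642 CPM), and those of Esam less so (7.83 on 80.6). Among CM libraries Pecam1 had an SD of 9.99 on a mean of 102 CPM, and Esam 0.838 on 14.8. Both proteins are also found on platelets.

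Cldn5 encodes claudin-5, the main tight junction claudin of endothelium, and it was the exception in level. It had 3.79 and 4.12 CPM in EC libraries (107 and 91 reads), against 2.06, 1.58 and 2.96 CPM in CM libraries (99, 67 and 132 reads). The log2 fold change was 0.84 ± 0.27 (edgeR, adjusted p = 0.0159). The call was lost without EC replicate 2 (adjusted p = 0.0638) and without CM replicate 2 (adjusted p = 0.0681), and in a test against a 2-fold difference (adjusted p = 0.876), all by edgeR. The gap between the lower EC library and the highest CM library was smaller than the spread among the CM libraries.

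Icam2 encodes ICAM-2, an adhesion molecule for leukocyte integrins. Its level was 104 and 95.0 CPM in EC libraries, against 33.4, 34.1 and 33.6 CPM in CM libraries, with a log2 fold change of 1.56 ± 0.08 (edgeR, adjusted p = 1.21e-08). The 3 CM libraries were closer to each other, relative to their mean, than for any other member. Emcn encodes endomucin, a sialomucin of capillary, venous and endocardial endothelium. It had 368 and 354 CPM in EC libraries, against 93, 80.6 and 58.9 CPM in CM libraries, and a log2 fold change of 2.22 ± 0.15 (edgeR, adjusted p = 1.44e-07). Here the CM libraries were spread, with CM replicate 3 lowest.

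Vwf encodes von Willebrand factor, the clotting glycoprotein stored in Weibel-Palade bodies of endothelium and in platelet granules. It stood at 207 and 194 CPM in EC libraries, against 21.1, 21.8 and 18.9 CPM in CM libraries, with a log2 fold change of 3.28 ± 0.08 (edgeR, adjusted p = 1.34e-10). Plvap encodes the protein of the diaphragms that span endothelial fenestrae and caveolae. Its level was 820 and 817 CPM in EC libraries, against 75.2, 78.2 and 60.2 CPM in CM libraries, and the log2 fold change was 3.52 ± 0.11 (edgeR, adjusted p = 3.49e-10). After Cdh5, Plvap and Vwf had the next largest differences, ranking 332 and 439 among all genes tested.

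Per length, in TPM (reads scaled to gene length and library size) computed from the counts and the exon length in the table, the EC order ran from Plvap to Cldn5. Plvap averaged 1171 ± 0.97 TPM in EC libraries (SD, n = 2), followed by Cdh5 at 737 ± 13.4, Emcn at 713 ± 17.7 and Pecam1 at 556 ± 4.16 TPM. Below them came Icam2 at 252 ± 16.1, Esam at 125 ± 12, Vwf at 65.5 ± 2.81 and Cldn5 at 8.06 ± 0.486 TPM. No neighbours in that order had overlapping EC libraries, although only 2 libraries set each range. Plvap was the gene ranked 73 of all genes in EC by TPM, and Cldn5 ranked 9637.

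The CM order differed: Emcn led at 121 ± 26 TPM (SD, n = 3), ahead of Plvap at 80.5 ± 10.8, Pecam1 at 69.7 ± 6.51 and Icam2 at 67.3 ± 1.46 TPM. Cdh5 stood at 42.3 ± 5.60, Esam at 18.2 ± 1.08, Vwf at 5.32 ± 0.384 and Cldn5 at 3.54 ± 1.14 TPM. The CM libraries of Plvap and Pecam1 overlapped, as did those of Pecam1 and Icam2, so the order among these 3 genes was not resolved. Cdh5 was the gene with the second highest level in EC, and in CM 4 members lay above it.

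**Figure D1:**
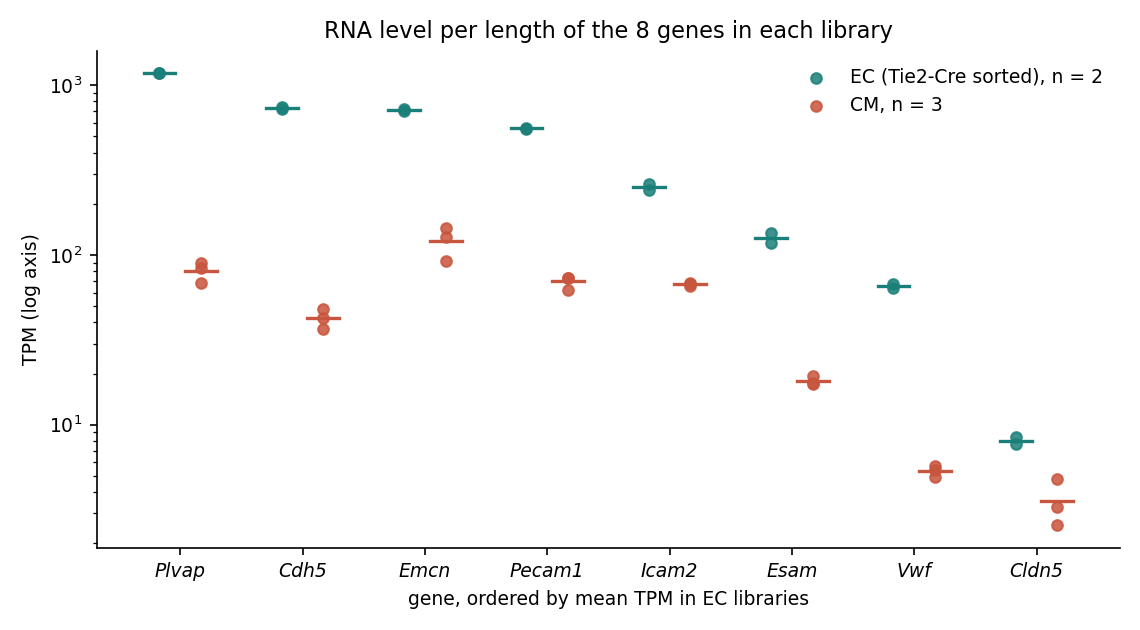
TPM of each gene in every RNA library on a log axis, EC libraries (teal, n = 2) left of CM libraries (red, n = 3), with a line at each mean. Plvap averaged 1171 TPM in EC and 80.5 TPM in CM, and Cldn5 8.06 TPM in EC and 3.54 TPM in CM.

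The share of the EC level found in CM libraries varied between members by more than it varied between CM libraries. For Cdh5 the CM libraries held 6.36%, 7.27% and 8.16% of the mean EC CPM. Plvap held 9.2%, 9.57% and 7.36%, and Vwf 10.52%, 10.9% and 9.45%. These 3 genes kept the smallest shares. Pecam1 averaged 15.9% ± 1.56, Esam 18.3% ± 1.04 and Emcn 21.5% ± 4.78 (SD, n = 3). Icam2 stood apart at 33.8% ± 0.402, and Cldn5 at 55.6% ± 17.8 was both the highest and the most variable. CM replicate 3 had the lowest CM level of Emcn, Plvap, Pecam1 and Vwf, but the highest of Cdh5, Esam and Cldn5.

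**Figure D2:**
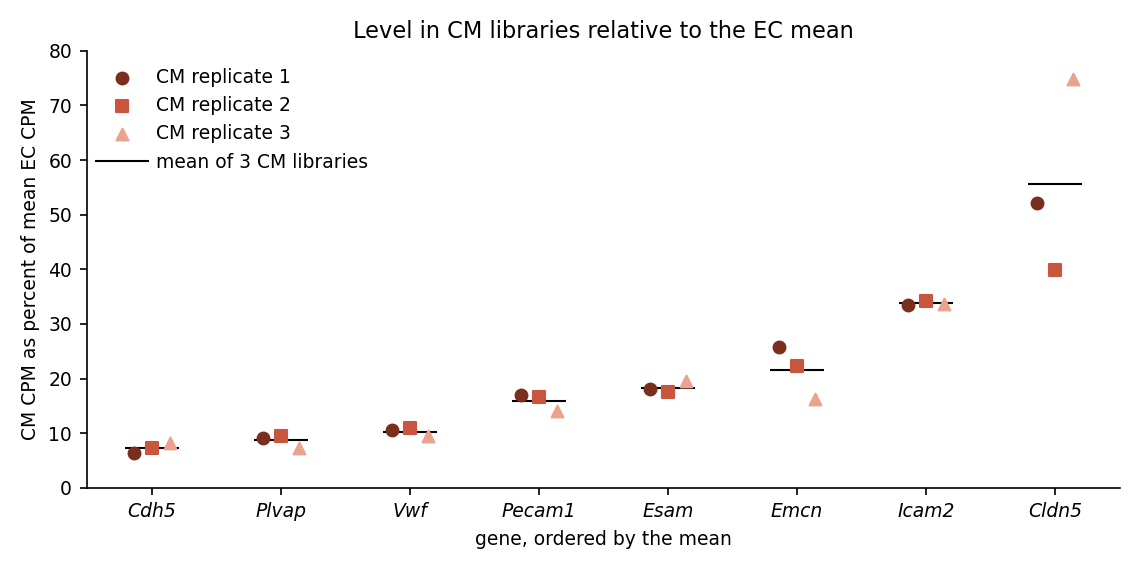
CPM in each CM library as a percent of the mean EC CPM, by gene (points, 3 CM libraries; black line, their mean; linear axis from 0). Cdh5 sits lowest at a mean of 7.26%, Icam2 at 33.8% and Cldn5 highest at 55.6%, with the widest spread.

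The 6 endothelial markers kept 5.58% to 22.2% of their EC level in CM libraries, a range that held 6 members and left Icam2 and Cldn5 above it. In bulk libraries, fewer cells of a type and less RNA per cell cannot be told apart. All 6 platelet and megakaryocyte markers were higher in EC, with sums of 48.2 to 49.8 CPM in EC and 5.23 to 7.91 CPM in CM. Of 5 leukocyte markers tested, 3 were higher in EC, and Cd68 and Mrc1 were not called. The sums of the leukocyte list were 15.8 to 18.1 CPM in EC and 10.47 to 11.9 CPM in CM. Adgre1 and Fcgr1 were at 0 in some libraries. The shares higher in EC, 100% and 60%, stand beside 37.5% of all genes tested. The part of endothelial cells in CM libraries, and of platelets and leukocytes in EC libraries, in the members' values was not tested.

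The 5 genes whose log2 CPM profile over the 5 RNA libraries was nearest to the members' median profile were Ctsk, Kcp, Clip2, Kif21b and Lrp5. Profiles were log2 of CPM plus 1, centred on each gene's own mean, so they match differences between libraries and not level. Adding 1 narrows the differences of genes at a few CPM, such as Cldn5. Their root mean square differences from that profile were 0.042, 0.060, 0.064, 0.066 and 0.067 log2 units. Of the members, Pecam1 lay nearest at 0.063, while Cdh5 at 0.62 and Cldn5 at 0.99 were the farthest. All 5 were higher in EC, with log2 fold changes of 2.62 to 2.85, and the likeness was taken over 5 libraries of 2 groups.

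Other genes of the same structures moved both ways. Of 17 adherens junction genes, 9 were higher and 7 lower in EC, and their median log2 fold change was 0.63. Ptprb, the receptor phosphatase that binds VE-cadherin, had 172 and 186 CPM in EC, against 20.4, 22.6 and 23.6 CPM in CM (log2 fold change 3.01; edgeR, adjusted p = 2.38e-10). Rasip1, a small GTPase effector needed for vessel lumens, was also higher (2.82; edgeR, adjusted p = 7.42e-10). Cdh2, the N-cadherin of cardiomyocyte contacts, ran the other way at 61.6 and 54.5 CPM in EC, against 559, 609 and 689 CPM in CM (-3.41; edgeR, adjusted p = 6.61e-10). Ctnnal1, related to alpha-catenin, was lower in EC as well, by a log2 fold change of -2.42 (edgeR, adjusted p = 1.06e-09). The list's shares, 52.9% higher and 41.2% lower, stand beside 37.5% and 40.2% of all genes tested, so the lower share was close to that of all genes.

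Of 16 tight junction genes tested out of 18, 7 were higher and 5 lower in EC, and the list's median log2 fold change was 0.29. Their shares were 43.8% higher and 31.2% lower, beside the same 37.5% and 40.2% of all genes tested. Cgnl1, the junction plaque protein paracingulin, stood at 1275 and 1264 CPM in EC, against 342, 387 and 318 CPM in CM (1.86; edgeR, adjusted p = 9.07e-09). F11r (JAM-A, a junctional adhesion molecule) was higher by 1.94 (edgeR, adjusted p = 1.47e-08). The scaffold genes Magi3 and Magi1 were lower in EC, with log2 fold changes of -2.03 and -1.06 (edgeR, adjusted p = 1.72e-09 and 4.36e-07). Of the other claudins, Cldn6 and Cldn7 were too low to be tested and Cldn3 was not called.

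Endothelial surface genes mostly ran with the members. Of 28 tested out of 30, 23 were higher and 4 lower in EC, and the median log2 fold change was 2.0. Their shares were 82.1% higher and 14.3% lower, beside 37.5% and 40.2% of all genes tested. The list was drawn up as one of endothelial genes, so its direction describes the choice and adds no evidence. The tetraspanin gene Tspan18 had 655 and 690 CPM in EC, against 39.4, 36.9 and 38.8 CPM in CM (4.13; edgeR, adjusted p = 1.67e-11). Adgrf5, an adhesion G protein-coupled receptor gene, was higher by 2.96 (edgeR, adjusted p = 1.85e-10). Vcam1, an adhesion molecule that embryonic cardiomyocytes also carry, and Cdh13 (T-cadherin) were lower in EC, with log2 fold changes of -1.51 and -1.52 (edgeR, adjusted p = 2.04e-08 and 4.52e-07).

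Partners of Vwf and of Plvap were counted in the same way. Of 15 genes of Weibel-Palade bodies and secreted partners tested out of 16, 11 were higher and 1 lower in EC, with a median of 1.97. The shares were 73.3% higher and 6.67% lower, beside 37.5% and 40.2% of all genes tested. Cd63, a tetraspanin of these granules, was higher by 3.12 and Mmrn2, an endothelial matrix glycoprotein, by 2.04 (edgeR, adjusted p = 2.70e-09 and 6.77e-09); Tfpi, an inhibitor of tissue factor, had a log2 fold change of -0.38 (edgeR, adjusted p = 0.00238). Of 15 genes of caveolae and fenestrae, 9 were higher (60%) and 4 lower (26.7%) in EC, with a median of 0.50. The VEGF receptor genes Flt1 and Kdr were higher by 2.70 and 2.66 (edgeR, adjusted p = 1.69e-10 and 2.22e-10). Ehd4, an endocytic ATPase gene, and Cav3, the muscle caveolin, were lower in EC by log2 fold changes of -1.95 and -6.49 (edgeR, adjusted p = 1.70e-09 and 1.02e-08). Cav1, the caveolin that endothelium shares with other cells, was not called (log2 fold change 0.03; edgeR, adjusted p = 0.877).

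Overlapping GATA4 peaks (1 bp or more) of the 6 libraries were merged into 49798 regions. Regions with peaks in 2 or 3 Tie2-Cre libraries and no Tnnt2-Cre library are called Tie2-Cre-selective here, those with the reverse pattern Tnnt2-Cre-selective, and those with peaks in 2 or 3 libraries of each lineage shared. The windows of the 8 genes held 46 regions: 15 Tie2-Cre-selective (32.6%), 4 Tnnt2-Cre-selective (8.70%), 5 shared and 22 that met no class. Over all merged regions, 12.2% were Tie2-Cre-selective, 18.2% Tnnt2-Cre-selective and 13.1% shared. These classes were not tested, since 3 libraries against 3 cannot give an exact two-sided permutation p below 0.1. Calling a class rested on replicates 1 and 3 of each lineage: without Tie2-Cre replicate 1 or 3 only 1 Tie2-Cre-selective region was left, that of the Icam2 promoter, and without Tnnt2-Cre replicate 1 or 3 only 1 Tnnt2-Cre-selective region. The Tie2-Cre-selective share at the members was then close to that of all regions: 2.22% at the members and 1.81% of all regions without Tie2-Cre replicate 1, and 2.86% at the members and 1.90% of all regions without Tie2-Cre replicate 3. With a peak required in all 3 libraries it was 2.17% at the members and 1.6% of all regions, and with lists of equal length it was 1 of 5 regions at the members and 18.2% of all regions.

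The 15 Tie2-Cre-selective regions fell at 7 of the 8 genes: 5 at Vwf, 3 at Pecam1, 2 each at Emcn and Plvap, and 1 each at Cdh5, Esam and Icam2. For 12 of the 15 the member was also the gene with the nearest start. The 4 Tnnt2-Cre-selective regions lay at Pecam1 (2), Icam2 (1) and Plvap (1). Cldn5 had no GATA4 peak of any library in its window.

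**Figure D3:**
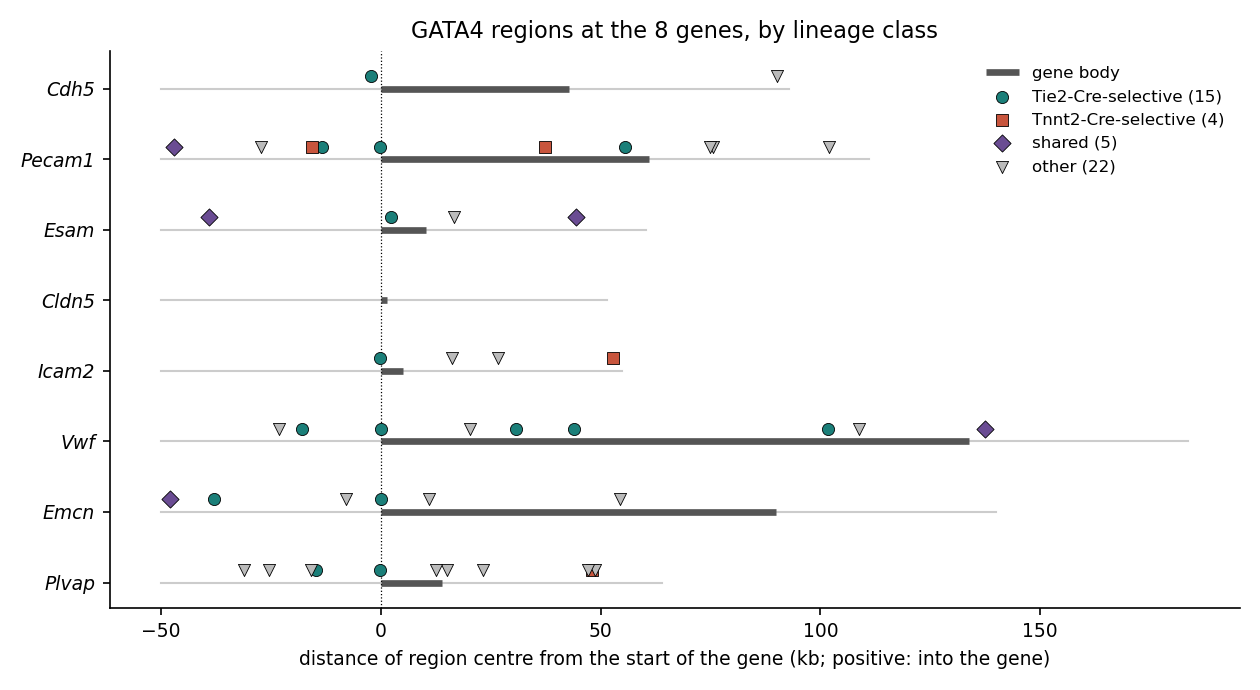
GATA4 regions at the 8 genes by the distance of their centre from the gene's start in kb, coloured by class; the thick bar is the gene body and the thin line the window of 50 kb on either side. Each of 7 genes has 1 Tie2-Cre-selective region (15, circles) at or within 1996 bp of its start. The other 8 such regions lie 13118 to 101624 bp away, as far out as the 4 Tnnt2-Cre-selective regions (squares, 15452 to 52743 bp). The Cldn5 row is empty. This split by distance was made after the values were seen, and the share of all genes with a region so near was not counted.

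In every library the peaks at the members can be set against the length of the list. With Tie2-Cre there were 23, 3 and 36 peaks, or 13.01, 10.97 and 13.9 per 10000 peaks of the list. With Tnnt2-Cre there were 10, 3 and 18 peaks, or 4.38, 8.33 and 5.91 per 10000. The means were 12.6 ± 1.49 with Tie2-Cre and 6.21 ± 1.99 with Tnnt2-Cre (SD, n = 3), and the groups did not overlap. How often the windows of other genes separate in this way was not counted, so this describes the members only. The exact two-sided permutation p was 0.1, the smallest this design can give. The 8.33 of Tnnt2-Cre replicate 2 and the 10.97 of Tie2-Cre replicate 2 rest on 3 peaks each. By gene, Pecam1 ran the other way, with means of 1.65 per 10000 with Tie2-Cre and 2.84 with Tnnt2-Cre, and it held 2 of the 3 peaks of Tnnt2-Cre replicate 2. Cldn5 had 0 in both lineages, and every other member had the higher mean with Tie2-Cre.

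At promoters, taken as 1 kb on either side of the start, 5 of the 8 genes had a Tie2-Cre-selective region and none had a peak in any Tnnt2-Cre library. Of 24267 genes considered, 1.41% had a Tie2-Cre-selective promoter region and 3.12% a Tnnt2-Cre-selective one. Among the 5572 of them called higher in EC the shares were 2.80% and 3.91%. The share of all genes with a promoter peak in any Tnnt2-Cre library was not counted, so its absence at the 8 genes has nothing to stand beside. Strength is given below as the percentile of a peak's −log10 p within its own list.

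The Icam2 promoter carried the strongest of them, at chr11:106382534-106383308 (mm10). Its peaks reached percentiles of 94.6, 89.5 and 95.9 in the 3 Tie2-Cre libraries, with the authors' fold enrichment at 7.10, 7.55 and 7.89. It was the only region at the members with a peak in all 3 Tie2-Cre and in no Tnnt2-Cre library. A promoter peak in every Tie2-Cre library was found at 1.31% of all genes. The Icam2 summits lay at -84, -56 and -120 bp from the annotated start. Icam2 thus paired the strongest Tie2-Cre-selective promoter region with the second smallest EC to CM difference in RNA of the 8 genes.

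The other 4 promoter regions had peaks in Tie2-Cre replicates 1 and 3 and none in the short list of replicate 2. At Vwf (chr6:125552751-125553046) the percentiles were 69.1 and 82.7, at Emcn (chr3:137341002-137341321) 45.5 and 74.3, at Plvap (chr8:71511680-71512089) 31.5 and 75.5, and at Pecam1 (chr11:106715153-106715566) 62.3 and 23.9. All 4 overlapped the annotated start. Pecam1 had the weakest of these peaks in replicate 3 but not in replicate 1, so strength did not order the genes the same way in both libraries.

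Cdh5 and Esam had no promoter region but a Tie2-Cre-selective region about 2 kb from the start. The Cdh5 region (chr8:104099264-104099629) ended 1996 bp upstream and had percentiles of 42.4 and 64.0 in Tie2-Cre replicates 1 and 3. The Esam region (chr9:37530070-37530566) began 1981 bp into the gene, in an intron, with percentiles of 73.2 and 62.2. Both regions had the member as nearest start.

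Distal Tie2-Cre-selective regions were found at 4 genes. Vwf had 4, of which the 3 strongest are given: one lay 17683 bp upstream (chr6:125534906-125535265; percentiles 59.6 and 86.3), and introns held the one at chr6:125596703-125597073 (79.3 and 78.6) and a weaker one at chr6:125654572-125654909 (20.6 and 84.99), which lies nearer to the start of Ano2. Plvap had one 14580 bp upstream (chr8:71526349-71526723; 69.9 and 89.2) that lies nearer to the start of Bst2. Pecam1 had one 13118 bp upstream (chr11:106728399-106728752; 63.4 and 71.5) and one in an intron (chr11:106659493-106659794; 45.5 and 47.4), the second nearer to the start of Tex2. Emcn had one 37843 bp upstream (chr3:137302912-137303235; 10.7 and 69.5), with no other gene start in the window.

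Pecam1 was the member at which both lineages had selective regions of their own close together. A Tnnt2-Cre-selective region 15452 bp upstream (chr11:106730733-106731153; percentiles 76.3 and 92.6 in Tnnt2-Cre replicates 1 and 3) lay beyond the Tie2-Cre-selective one named above at 13118 bp. Another, in a Pecam1 intron (chr11:106677807-106678175), had peaks in all 3 Tnnt2-Cre libraries at percentiles of 75.9, 18.7 and 88.2. Each was open in both Tie2-Cre-sorted EC ATAC libraries. The remaining Tnnt2-Cre-selective regions, 47758 bp downstream of Icam2 in Scn4a and 33874 bp downstream of Plvap in Abhd8, were nearest to the starts of other genes.

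The strongest shared region stood 47533 bp upstream of Emcn (chr3:137292925-137293545). Its percentiles were 81.8 and 93.3 in Tie2-Cre replicates 1 and 3, against 94.0, 87.2 and 92.3 in the 3 Tnnt2-Cre libraries. Inside the first part of the same gene, an intronic region (chr3:137351748-137352157) had peaks in all 3 Tie2-Cre libraries at 63.6, 13.8 and 72.4 and in Tnnt2-Cre replicate 3 at 58.3, so it met no class. This last region is named because it was the 1 exception in open chromatin: 45 of the 46 regions overlapped a peak in both EC ATAC libraries, and it did not. Over all merged GATA4 regions that share was 69.0%, over Tie2-Cre-selective regions 88.3% (15 of 15 at the members) and over Tnnt2-Cre-selective regions 41.3% (4 of 4 at the members).

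Promoter sequence was to hand for Emcn and Cldn5 alone, from RefSeq (GRCm38.p6, the mm10 assembly). They are shown because one promoter carried a Tie2-Cre-selective region and the other had no GATA4 peak within 50 kb. Each line gives the 250 bases before the start, on the plus strand, at chr3:137340828-137341077 for Emcn and chr16:18776597-18776846 for Cldn5, with the motif AGGAAG and its reverse complement CTTCCT in capitals.
Emcn: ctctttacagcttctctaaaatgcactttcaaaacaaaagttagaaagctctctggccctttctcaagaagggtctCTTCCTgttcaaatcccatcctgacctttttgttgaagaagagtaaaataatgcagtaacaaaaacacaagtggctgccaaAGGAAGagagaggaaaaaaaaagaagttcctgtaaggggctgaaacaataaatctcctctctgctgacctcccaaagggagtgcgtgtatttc
Cldn5: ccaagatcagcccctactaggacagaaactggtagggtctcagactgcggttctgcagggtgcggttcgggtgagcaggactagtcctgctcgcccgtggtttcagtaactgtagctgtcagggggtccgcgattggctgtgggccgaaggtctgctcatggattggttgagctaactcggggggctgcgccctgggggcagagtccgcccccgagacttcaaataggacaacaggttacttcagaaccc

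The Emcn stretch was 40.8% G and C and the Cldn5 stretch 59.6%, against a median of 52.4% over all promoters of the table. Emcn held AGGAAG, a core found in sites of ETS factors, at -93 to -88 and on the other strand at -174 to -169; 29.5% of 32851 promoters hold it within 250 bases. The other motifs searched on both strands were AGATAA and GATAA, of which GATAA lies inside AGATAA, and CCGGAA and TATAAA. Shares of promoters holding them were 9.99%, 22.6%, 12.03% and 12.4%, and neither stretch held one. The Emcn GATA4 region covered the 76 bases next to the start, which hold none of the motifs, and its summits lay 62 and 43 bp past the start.

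Open chromatin was found at every promoter of the 8 genes in all 8 ATAC libraries. Over all genes, 65.7% had a promoter peak in both Tie2-Cre-sorted libraries, 56.7% in all 3 ko libraries and 57.4% in all 3 het libraries. In Tie2-Cre cells the promoter peaks of Icam2, Pecam1, Cdh5 and Plvap had percentiles of 91.9 to 94.9, those of Emcn and Vwf 79.04 to 84.7, and those of Cldn5 76.6 and 73.4. Esam had 87.7 and 96.2, the second on a peak whose summit lay 2269 bp past the start. Cldn5, the gene with the lowest RNA level, also had the weakest promoter peak in both libraries.

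**Figure D4:**
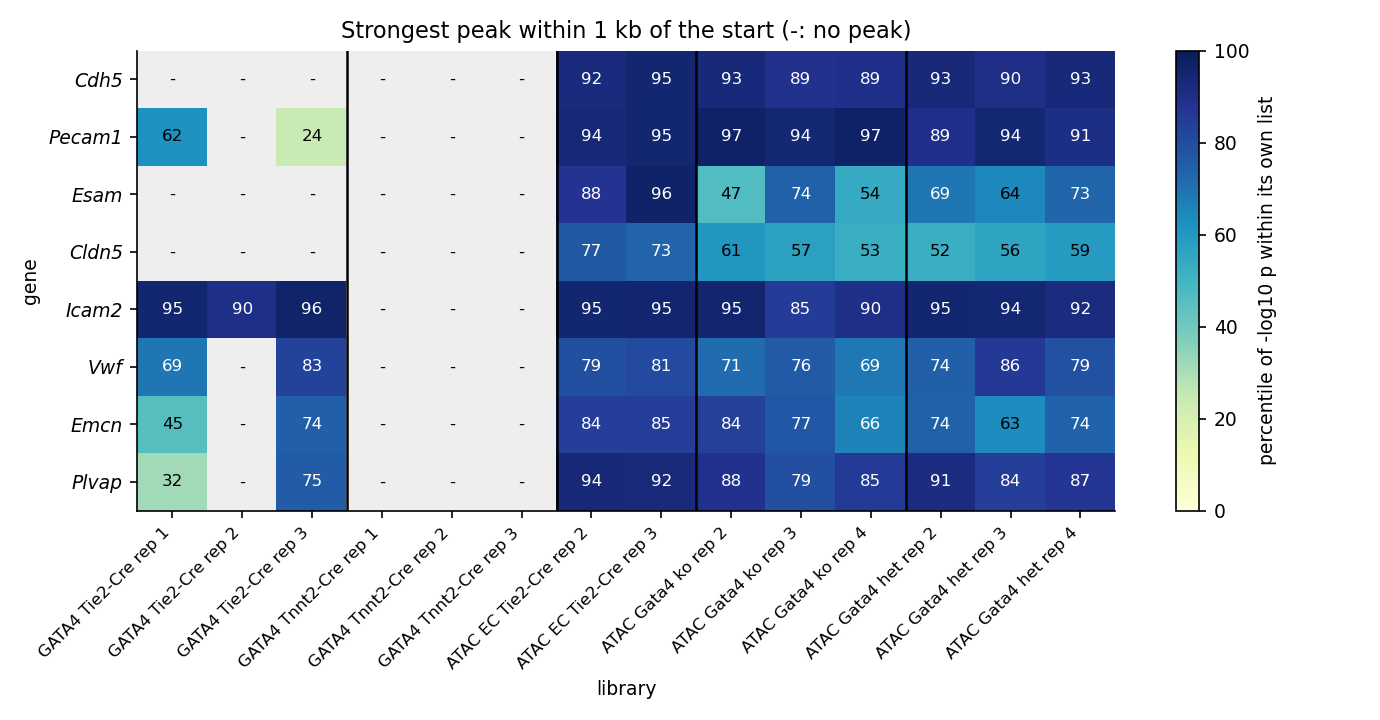
Percentile of −log10 p, within its own list, of the strongest peak within 1 kb of each gene's start (rows) in each library (columns; Tie2-Cre before Tnnt2-Cre GATA4, then ATAC of EC, Gata4 ko and Gata4 het); a dash marks no peak. GATA4 peaks appear at 5 promoters with Tie2-Cre and at none with Tnnt2-Cre, and all 8 promoters have an ATAC peak in every ATAC library. Shares of all genes with a promoter GATA4 peak in any library of a lineage were not counted.

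Gata4 ko and het cells were compared over 128146 merged ATAC regions, of which 1.72% were ko-selective, 3.05% het-selective and 45.5% shared by the rule used for GATA4. The members' windows held 141 regions, 3 ko-selective, 3 het-selective and 81 shared (57.4%). None of the 6 selective regions was at a promoter and none overlapped a GATA4 peak. The share of the 141 regions that overlap a GATA4 peak was not counted, so the second count has nothing to stand beside. Over all genes, 0.565% had a ko-selective and 0.890% a het-selective promoter region. Libraries of ko cells had 115, 101 and 85 peaks at the members, or 13.7 ± 1.35 per 10000 (SD, n = 3), and het libraries 102, 109 and 91, or 12.7 ± 1.21 per 10000, and the groups overlapped (exact two-sided permutation p = 0.6).

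The ko-selective regions lay 14679 bp upstream of Cdh5, 5137 bp upstream of Icam2 and 31770 bp downstream of Pecam1, at percentiles of 8.59 to 26.8 in the 2 ko libraries that had each. The het-selective ones lay 73 bp past the end of Cdh5, 10221 bp upstream of Cldn5 and 3587 bp downstream of Esam, inside Vsig2, at percentiles of 6.70 to 50.9. None had a peak in all 3 libraries of its genotype.

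Promoter peaks of ko and het cells overlapped in percentile for all 8 genes. How often this holds over the promoters of all genes was not counted. The overlap was narrowest for Pecam1, at 96.6, 94.2 and 96.7 in ko cells, against 89.4, 94.4 and 90.5 in het cells. Cdh5 had 93.3, 88.9 and 89.1 in ko cells, against 92.9, 89.7 and 92.97 in het cells. Icam2, whose promoter carried GATA4 in all 3 Tie2-Cre libraries, had 95.2, 85.05 and 89.5 in ko cells, against 94.6, 94.5 and 91.6 in het cells. Cldn5 had 60.8, 57.1 and 52.7 in ko cells, against 52.3, 56.2 and 58.8 in het cells. Percentiles come from lists of different lengths and depth is unknown here, so they describe each list and measure no change in accessibility.

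One feature set Cdh5 apart in the 6 Cdh5(Pac)-CreERT2 libraries, and it was looked for after the values had been seen. The fold enrichment of its promoter peak was 4.34, 4.22 and 4.31 in ko cells, against 4.42, 4.33 and 4.85 in het cells. Peaks of like −log10 p in the same list, within 1 percentile point, had a higher fold: the Cdh5 fold was 0.42 to 0.51 of their median in ko cells and 0.44 to 0.48 in het cells. Esam came next at 0.64 to 0.70 in ko cells and 0.57 to 0.67 in het cells, and the other 6 promoters ranged from 0.73 to 1.08 over the 6 libraries. The low fold was not confined to the promoter. The Cdh5 window held 13 to 17 ATAC peaks per library. Their median ratio was 0.63 to 0.74 in ko cells and 0.69 to 0.73 in het cells. The medians of the other 7 windows ranged from 0.79 to 1.05 over the 6 libraries. Not every Cdh5 peak was low: in ko cells 14 of 17, 10 of 16 and 9 of 13 fell in the lowest 5% of like peaks. In het cells 12 of 17, 7 of 16 and 11 of 16 did. Cells of both genotypes carry the transgene with its own Cdh5 sequence, and its part in these values was not tested. That holds for every ATAC peak of the Cdh5 window in these cells, the ko-selective and het-selective regions named above included. In the Tie2-Cre-sorted libraries fold and −log10 p ranked the peaks alike, so the same comparison has no meaning there.

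**Figure D5:**
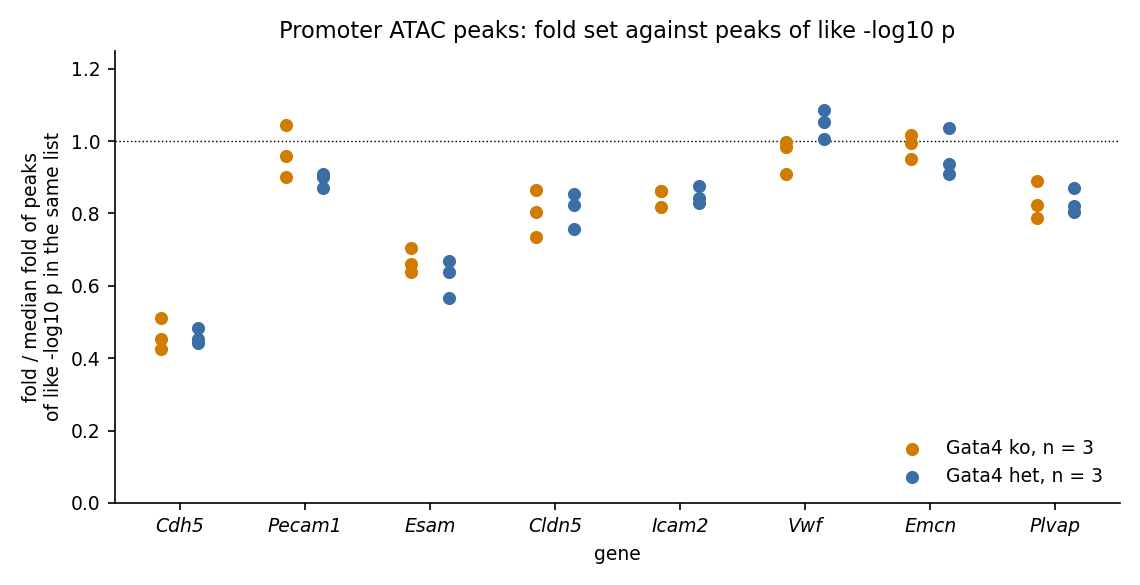
Authors' fold enrichment of each gene's strongest promoter ATAC peak divided by the median fold of peaks with like −log10 p (within 1 percentile point) in the same list, in Gata4 ko (orange) and Gata4 het (blue) libraries; the dotted line marks 1. Cdh5 lies at 0.42 to 0.51 in ko cells and 0.44 to 0.48 in het cells, below every other gene.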

How the data were processed

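RNA values were read counts per gene deposited by the authors, counted with featureCounts on UCSC mm10 gene models with strand setting 1, per the file headers. Per the submitters' processing notes, Bowtie 1.1.1, Bowtie2 2.2.9, STAR 2.7.3a, MACS2 2.2.4, deepTools 3.3.1 and featureCounts 1.6.3 were used on mm10, with no roles given. Peak lists, deposited per library, hold a fold enrichment (a ratio) and −log10 p and q values; the names of GATA4 and of ko and het peaks carry macs2, per the deposited files, and no source used here names the caller of the Tie2-Cre ATAC lists. Read depth behind the peaks is unknown.

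From the counts, edgeR 4.0.16 (R 4.3.3; TMM, filterByExpr, quasi-likelihood test, group as the only term) was fitted over EC and CM libraries on the whole table, with Benjamini-Hochberg adjustment over 14851 genes at 0.05. CPM used TMM-scaled library sizes. DESeq2 1.42.0 was an alternative, and the code was tested on simulated data. Peaks were handled in Python 3.11.15 (pandas 2.3.3, numpy 2.4.6), with 1-based coordinates, a window of 50 kb and promoters of 1 kb on either side of the start. A second EC-only count table was equal in all 48842 cells. Replicates of a group differed by more than counting noise.

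The members and lists were chosen with earlier results of these data known. For each related list (junctions, surface, Weibel-Palade bodies, caveolae), the text names the 2 genes with the smallest adjusted p in each direction. From the marker lists it names all endothelial markers, some with zeros or no call, and only some that the same rule gives. It also names the 5 nearest profiles and the promoter regions. Up to 3 further GATA4 regions per class and gene are named, those with the highest mean percentile. Cav1, Cldn3, Cldn6, Cldn7, the unclassed Emcn intron region and the selective ATAC regions were added after their values were seen. The cut at 2000 bp between near and far GATA4 regions was also set then. Alternatives were other scalings, no filter, DESeq2, a 2-fold test, other windows, stricter peaks and each library left out. Exact permutation tests of peaks per 10000, unpaired and by replicate number, were added after seeing the data.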

Additional observations from a re-analysis of the deposited data

How the results depend on the processing

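All members but Cldn5 stayed higher in EC under every alternative run, by edgeR and by DESeq2, and 0 were lower. From 7 to 8 members were called with each library left out in turn. In a test against a 2-fold difference, related list genes lower in EC numbered 12 (of 21), and all genes numbered 2569 higher and 2675 lower, against 5575 and 5972. With the replicate number as a block, edgeR still called all 8 members (Cldn5 log2 fold change 1.12, adjusted p = 0.00455); deviations of same-numbered libraries were uncorrelated (r of -0.0052 and 0.00015), so the numbers were not taken as pairs. Peaks per 10000 at the members were 6.41 higher with Tie2-Cre than with Tnnt2-Cre, and higher in 3 of 3 pairs of the same number; with the number as a block the exact two-sided p was 0.25, the smallest that 3 pairs allow. In ko cells they were 1.04 higher than in het cells, in 2 of 3 pairs (exact p = 0.5). These tests were added after seeing the data; with each library left out the differences ranged over 5.5 to 7.47 and 0.267 to 1.52.

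Tie2-Cre-selective, Tnnt2-Cre-selective and shared GATA4 regions at the members (15, 4 and 5) numbered 1, 0 and 0 of 5 regions with lists shortened to equal length, against 18.2%, 19.1% and 9.94% of all regions, and 1, 1 and 0 of 46 with all 3 libraries required, against 1.6%, 2.32% and 1.38%. Within 20 kb there were 2 Tnnt2-Cre-selective and 1 shared, within 100 kb 7 Tnnt2-Cre-selective, and with the member as nearest start 2 and 1. With each library left out they ranged over 1 to 17, 1 to 5 and 0 to 5. Shared regions numbered 0 without Tie2-Cre replicate 1 or 3, and 2 without Tnnt2-Cre replicate 1 or 3.

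Ko-selective, het-selective and shared ATAC regions (3, 3 and 81) numbered 1 ko-selective and 0 het-selective at equal length, and 0 and 0 with all 3 libraries required. Het-selective regions numbered 1 at a −log10 q of at least 5, 5 where a peak had to cover 0.5 of its region, and 1 with the member as nearest start. Within 100 kb there were 6 ko-selective and 133 shared; shared numbered 52 within 20 kb and 38 by nearest start. With each library left out they ranged over 0 to 5, 0 to 7 and 70 to 79: ko-selective 0 without ko replicate 2, 1 without ko replicate 3 and 5 without het replicate 3 or 4; het-selective 7 without ko replicate 2 and 0 without het replicate 2 or 3. The cause of each change was not tested beyond what a setting removes by construction.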

Other observations

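Markers of blood cells did not move as one in the sorted EC libraries. Epor, the erythropoietin receptor gene, had 8.01 and 8.78 CPM in EC, against 0.770, 0.847 and 0.628 CPM in CM (log2 fold change 3.48; edgeR quasi-likelihood, adjusted p = 9.45e-08), and Klf1, an erythroid transcription factor gene, was higher by 1.73 (edgeR, adjusted p = 4.77e-05). The embryonic globin gene Hbb-y had 12.3 and 11.8 CPM in EC, against 3025, 2254 and 1213 CPM in CM (-7.49; edgeR, adjusted p = 2.62e-08), the CM libraries differing among themselves by more than those of any member. Gp1ba, a subunit of the platelet receptor for von Willebrand factor, had 21.4 and 23.6 CPM in EC, against 0.312, 0.259 and 0.0898 CPM in CM (6.64; edgeR, adjusted p = 2.01e-09). Over all genes tested 37.5% were higher and 40.2% lower in EC, the shares to set beside the counts that follow. Of 6 mesenchymal and mural markers 4 were higher in EC, among them Postn and Pdgfrb. Acta2 was lower and Rgs5 was not called. Epicardial markers were lower in EC in 4 of 4 cases, with sums of 56.1 to 59.8 CPM in EC and 230 to 260 CPM in CM. Endocardial markers were higher in 3 of 3: Hapln1, a cardiac jelly link protein gene, had 1454 and 1491 CPM in EC, against 25.5, 28.2 and 24.1 CPM in CM.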
